A study of Homo sapiens with 4 samples.

Results

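The 5 genes described here encode 3 proteins of the dynamin family that cut or shape membranes (DNM1, DNM2 and DNM1L), the mitochondrial adaptor MFF and the inner membrane fusion protein OPA1. They were taken by name from the alternative splicing tables of the series, which hold events of 12219 genes. All events of the 5 genes in the 5 event types were used, 143 of 121269. The genes were chosen with splicing results of these same libraries in view, among them those of the mutually exclusive exons of DNM2, so the differences between conditions below are descriptions, and no p-value of a single event is given.

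RNA-seq was done on U87MG cells, a human line that the labels give as a likely glioblastoma. All 4 cultures were transfected with lipofectamine and 2.5 µM of a single-stranded 2′-O-methyl RNA oligonucleotide. In 2 libraries the oligonucleotide was RBFOXi, a decoy that carries repeats of the motif bound by the splicing factors RBFOX1 and RBFOX2, and in 2 it was SCRM, a scrambled control. The oligonucleotide of RBFOXi replicate 1 carried the dye Cy5 according to its label, and no dye is named for the other 3, so dye and replicate cannot be told apart within that group. The question was which exons change their inclusion when the decoy occupies RBFOX proteins. Of the glial and mesenchymal markers, VIM had events with up to 185009 counts in a library, FN1 141091, CD44 34169 and NES 432. Of the neuronal markers, TUBB3 had up to 6950 counts, SNAP25 831, MAP2 642 and SYP 34. GFAP, S100B, RBFOX3, PTPRC and CD3E had no event in the tables, which list alternative events and not expression.

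Dynamins are large GTPases that assemble around the neck of a budding membrane and sever it. DNM2 is found in most tissues and works in endocytosis, DNM1 is best known from the synaptic terminals of neurons, and DNM1L (Drp1) is recruited from the cytosol to divide mitochondria and peroxisomes. MFF is a receptor on the mitochondrial outer membrane that recruits DNM1L, whereas OPA1 fuses inner membranes and maintains cristae. All 5 genes are alternatively spliced. DNM1 and DNM2 each carry 2 alternative versions of exon 10, known as 10a and 10b, which lie in the stalk region of the protein through which dynamin assembles. RBFOX proteins bind UGCAUG in introns and are known to favour an exon when they bind after it and often to repress it when they bind before it.

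The alternative exon 10 of DNM2 was in view when the genes were chosen, so its sequences are shown first. In hg19 the upstream exon of the pair lies on chromosome 19, plus strand, from 10906737 to 10906875, and the downstream exon from 10908056 to 10908194. Both are 139 nt long and coding, and because 139 is not a multiple of 3, a transcript with both or with neither is shifted in frame. Among the 6 protein-coding GENCODE transcripts that span the site, 3 carry the upstream and 3 the downstream exon, and over all transcripts of the gene 1 holds both. The sequences below are read from the genome, 5′ to 3′, with capitals at each base where the exons of one gene differ from each other. The homologous DNM1 exons (chromosome 9, plus strand, 130986530 to 130986668 and 130988314 to 130988452) are also 139 nt long and are given to show how the pair compares between the genes.
DNM2 upstream exon: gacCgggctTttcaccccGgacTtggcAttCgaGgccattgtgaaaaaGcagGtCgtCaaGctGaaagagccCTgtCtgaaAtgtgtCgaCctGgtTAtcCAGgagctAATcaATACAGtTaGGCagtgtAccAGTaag
DNM2 downstream exon: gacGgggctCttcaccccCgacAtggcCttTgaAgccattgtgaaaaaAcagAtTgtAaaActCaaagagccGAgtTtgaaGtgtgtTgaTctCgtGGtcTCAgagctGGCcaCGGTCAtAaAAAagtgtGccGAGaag
DNM1 upstream exon: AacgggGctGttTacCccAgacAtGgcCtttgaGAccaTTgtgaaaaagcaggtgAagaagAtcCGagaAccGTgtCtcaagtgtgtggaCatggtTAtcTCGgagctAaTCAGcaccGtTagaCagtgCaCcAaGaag
DNM1 downstream exon: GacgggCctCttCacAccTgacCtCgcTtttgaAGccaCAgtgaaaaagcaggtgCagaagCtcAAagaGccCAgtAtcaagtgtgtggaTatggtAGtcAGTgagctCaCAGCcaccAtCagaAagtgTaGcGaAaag

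Within DNM2 the exons of the pair share 97 of 139 bases (69.8%), and within DNM1 100 (71.9%). Each exon is closer to its counterpart in the other gene, with 107 identical bases (77%) between the upstream exons and 102 (73.4%) between the downstream ones.

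The introns of the pair also have features in common. The intron before the upstream exon begins with GC in place of the usual GT in both genes, a start found after 386 of the 30615 distinct tested skipped exons (1.26%), against GT after 98.7%. Before the downstream exon, DNM2 has GCATG, the core of the RBFOX motif, 6 nt ahead of the exon, while the same stretch of DNM1 has none. The first 20 bases of the former intron (the first 2 in capitals) and the last 30 bases of the latter (GCATG in capitals) show this.
DNM2 start of the intron before the upstream exon: GCaagttccacgaggagagt
DNM1 start of the intron before the upstream exon: GCacgtattggggcctggga
DNM2 end of the intron before the downstream exon: ctgcctcatcctgccctccGCATGacccag
DNM1 end of the intron before the downstream exon: ctcctgtccccacctcctccccgggtgcag

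SCRM replicate 1 stands apart from the other libraries in where its counts lie along the genes. On exons with PSI (the proportion spliced in, defined below) of at least 0.9 in both groups in each event of that exon with 20 or more counts on average, the alternative exons described below left out, the ratio of its counts to those of SCRM replicate 2 was 0.0735 at the exon of OPA1 nearest the 5′ end and 0.568 at the last one. From the first to the last such exon this ratio was 7.72 times as high in OPA1, 6.41 in DNM1L, 2.44 in DNM2 and 2.21 in DNM1, whereas the ratio of RBFOXi replicate 1 to replicate 2 changed by factors of 0.937 to 1.10. In MFF, with 3 such exons, the SCRM ratio was 1.02, 1.13 and 1.28. Over 3605 genes with at least 5 such exons the median factor was 2.43 between the SCRM libraries and 0.996 between the RBFOXi libraries, and it was above 1 in 96.1% and 48.7% of them. Near the DNM2 pair the SCRM ratio was 0.503 on the constant exon before it and 0.651 on the one after it, and on the pair itself 0.499 for the upstream and 0.622 for the downstream exon. The part of this slope in the values of DNM1L, MFF and OPA1 was not tested. For DNM2, the difference with and without this library is given below.

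**Figure D1:**
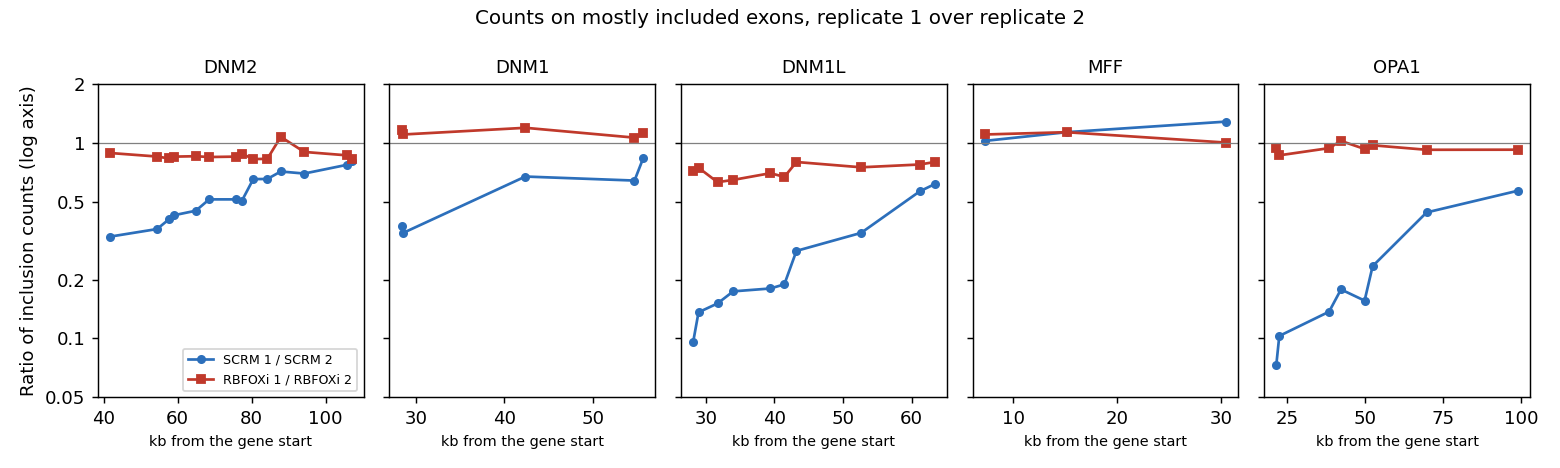
Ratio of inclusion counts of replicate 1 to replicate 2 (vertical log axis) on exons with PSI of at least 0.9 in both groups in each of their better covered events, against their distance from the gene start in kb, for SCRM (blue circles) and RBFOXi (red squares). The SCRM ratio is higher at the last exon than at the first in each gene (0.568 against 0.0735 in OPA1), and the RBFOXi ratio stays nearly level.

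With SCRM, most DNM2 transcripts used the upstream exon, and with RBFOXi the pair was closer to even. The upstream exon had 1349 and 2705 counts in the SCRM libraries and 1556 and 1897 in the RBFOXi libraries, whereas the downstream exon had 541 and 870 with SCRM and 1177 and 1414 with RBFOXi. The proportion spliced in (PSI, here the share of the upstream exon, from 0 to 1) was therefore 0.714 and 0.757 with SCRM and 0.569 and 0.573 with RBFOXi. Both RBFOXi values lay below both SCRM values, as in 8.42% of all tested mutually exclusive events, and the RBFOXi libraries lay closer to each other than the SCRM libraries did. The means were 0.571 ± 0.0025 with RBFOXi and 0.735 ± 0.03 with SCRM (SD, n = 2 each), a delta PSI (RBFOXi minus SCRM) of -0.164. Since the exons are equally long, the plain share of counts gives the same value. Delta PSI was -0.186 without SCRM replicate 1 and -0.143 without SCRM replicate 2.

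DNM2 has 6 other mutually exclusive events. Each pairs exons that 5 to 10 annotated transcripts hold together, so that their PSI reflects the relative counts on constant exons. They do not show how much the PSI of an alternative pair varies between libraries. Delta PSI ranged from -0.0293 for the exons of 52 and 114 nt, which have a 12 nt microexon between them, to 0.0164 for those of 161 and 143 nt. In all genes, a delta PSI of 0.1 or more in size was reached by 936 of the 26176 tested mutually exclusive events (3.58%). Within the 5 genes it was reached by 1 of 39, the DNM2 pair, which was in view when the genes were chosen. All 4 libraries of the DNM2 pair were then compared with the best-covered event of each of 6684 other genes by Euclidean distance in PSI. The nearest were RCAN3 (distance 0.0895), CCDC24 (0.0958) and PODNL1 (0.103), whose delta PSI was -0.0912, -0.0784 and -0.0735.

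**Figure D2:**
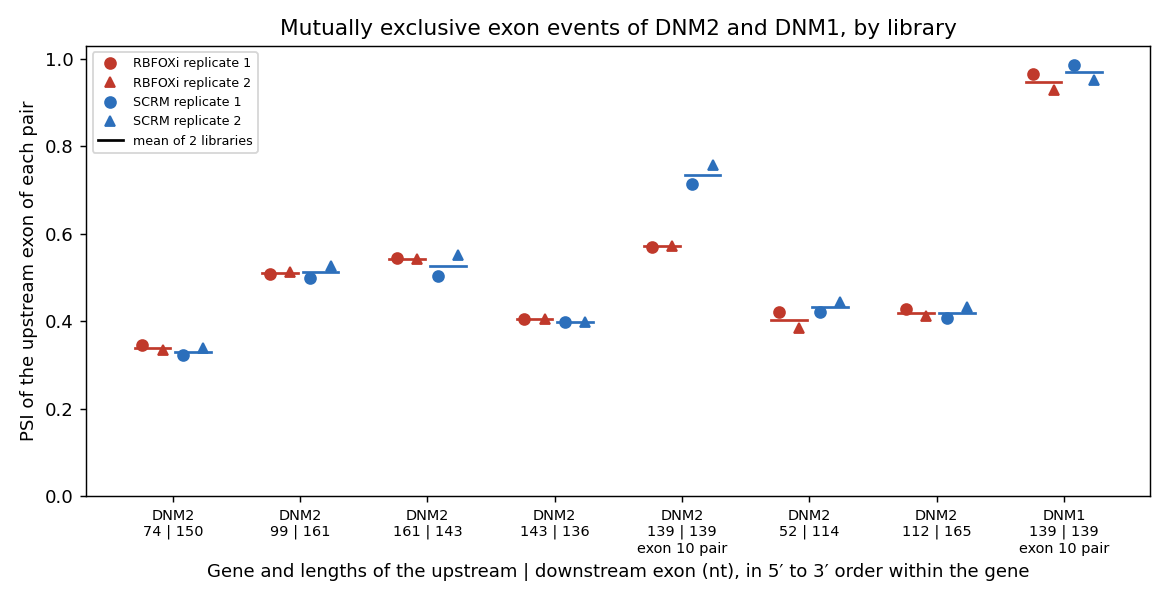
PSI of the upstream exon (vertical axis, 0 to 1) for the 7 mutually exclusive events of DNM2 and the 1 of DNM1, with a point for each library (circles replicate 1, triangles replicate 2) and a bar at each mean. In the DNM2 exon 10 pair the RBFOXi libraries are at 0.569 and 0.573 and the SCRM libraries at 0.714 and 0.757, while delta PSI lies between -0.0293 and 0.0164 in the other DNM2 pairs.

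DNM1 used its upstream exon almost throughout. Its PSI was 0.966 and 0.930 with RBFOXi and 0.987 and 0.952 with SCRM, on 758 to 1400 counts of the upstream and 10 to 76 of the downstream exon, and the groups overlapped. Delta PSI was -0.0214, with means of 0.948 ± 0.026 and 0.969 ± 0.025 (SD, n = 2 each). The lower value in each group was that of replicate 2.

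Further downstream, both dynamins have a 12 nt microexon, which keeps the frame, between constant exons of the same lengths (52 and 114 nt). The exon is shown in capitals with 12 intron bases on each side, on chromosome 19 from 10919245 to 10919256 for DNM2 and on chromosome 9 from 131002264 to 131002275 for DNM1.
DNM2 microexon: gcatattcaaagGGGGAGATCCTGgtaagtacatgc
DNM1 microexon: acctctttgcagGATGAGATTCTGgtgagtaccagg

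The microexons are identical at 9 of 12 bases. In DNM2, 3 of the 6 protein-coding transcripts that span the site carry it, and in DNM1 10 of 11. The DNM2 microexon had 68 and 114 inclusion counts with RBFOXi and 24 and 50 with SCRM, against 356 and 304 skipping counts with RBFOXi and 351 and 415 with SCRM. PSI was 0.632 and 0.771 with RBFOXi and 0.381 and 0.520 with SCRM, so that both RBFOXi libraries lay above both SCRM libraries, as in 14.3% of all tested skipped exon events. The means were 0.702 ± 0.098 and 0.451 ± 0.098 (SD, n = 2 each), and delta PSI was 0.251, the largest of any tested event of the 5 genes. This level depends on length, because the authors' effective lengths are 5 for inclusion and 45 for skipping. As a plain share of counts, inclusion is much lower and the mean difference is 0.131. Delta PSI of the DNM2 microexon was 0.182 without SCRM replicate 1 and 0.321 without SCRM replicate 2. In DNM1 the microexon stood at 0.764 and 0.796 with RBFOXi and at 0.755 and 0.754 with SCRM, a delta PSI of 0.0259 on 27 to 40 inclusion counts per library. It was 0.0423 without RBFOXi replicate 1 and 0.00958 without RBFOXi replicate 2. The effective lengths of the DNM1 microexon event are also 5 and 45. Its plain share of inclusion counts was 0.264 and 0.303 with RBFOXi and 0.255 and 0.254 with SCRM.

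The remaining DNM1 events concern the end of the gene. A second 12 nt exon (chromosome 9, 131010203 to 131010214) was nearly always included, with PSI from 0.990 to 0.994. An alternative 3′ splice site starting at the same base had PSI of 0.432 and 0.454 with RBFOXi and 0.275 and 0.313 with SCRM, a delta PSI of 0.149. The long form is 830 nt, runs to the end of the next exon and is annotated in 1 transcript, outside its coding sequence. This PSI sets the long form against skipping of the second 12 nt exon only, so it is not a share of all DNM1 transcripts. The effective lengths are 731 and 86, and as a plain share of counts the difference is 0.0918. Of all tested alternative 3′ splice sites, 16.7% had both RBFOXi libraries above both SCRM libraries and 6.88% a delta PSI of 0.1 or more in size. Its skipping counts (17 and 18 with RBFOXi, 22 and 32 with SCRM) are those of the second microexon, so the 2 events are not separate measurements. A retained intron event at the same place had a PSI near 0.001 in each library. This level too depends on length: the effective lengths are 638 and 5, and the plain share of counts was 0.0857 to 0.123. The 37 nt exon near the 3′ end (131015380 to 131015416), partly coding in 5 transcripts, rested on 9 to 22 inclusion counts and had PSI of 0.164 and 0.136 with RBFOXi and 0.0846 and 0.125 with SCRM. In DNM2, the choice between 3′ splice sites 3 nt apart before the last exon gave 0.786 and 0.803 with RBFOXi and 0.777 and 0.758 with SCRM, a delta PSI of 0.0266. The groups did not overlap in these last 2 events, but their means differed by less than 0.05.

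MFF had the most events, 27 of skipped exons at 10 distinct exons, and in 10 of the 22 that were tested both RBFOXi libraries lay below both SCRM libraries. A 112 nt exon (chromosome 2, plus strand, 228193394 to 228193505) lies outside the coding sequence in all 15 transcripts that hold it and is exon 2 of the MANE transcript. In the event with the most counts, in which it is skipped to the 221 nt exon that follows, it had 1358 and 1075 inclusion counts with RBFOXi and 1094 and 1882 with SCRM, against 182 and 311 skipping counts with RBFOXi and 82 and 105 with SCRM. Its PSI was 0.777 and 0.618 with RBFOXi and 0.862 and 0.893 with SCRM, with means of 0.697 ± 0.11 and 0.878 ± 0.022 (SD, n = 2 each) and a delta PSI of -0.180. Both RBFOXi libraries lay below both SCRM libraries, and the spread between the RBFOXi libraries was wide. Delta PSI was -0.260 without RBFOXi replicate 1 and -0.1004 without RBFOXi replicate 2. Where the same exon was skipped to the 170 nt exon, PSI was 0.647 and 0.613 with RBFOXi and 0.620 and 0.791 with SCRM, and the groups overlapped. Skipping to the 85 nt exon was almost absent, with 1 to 5 skipping counts per library.

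The coding exons in the middle of MFF are known to vary between its isoforms, and the 75, 159 and 60 nt exons, all multiples of 3, keep the frame. A 42 nt version of the 159 nt exon is also listed, and it had PSI of 0.799 and 0.658 with RBFOXi and 0.862 and 0.814 with SCRM (delta PSI -0.110, and -0.0392 without RBFOXi replicate 2). The 159 nt exon itself, spliced to the 85 nt exon, had PSI of 0.236 and 0.205 with RBFOXi and 0.364 and 0.266 with SCRM, a delta PSI of -0.0951 (-0.0463 without SCRM replicate 1). The 75 nt exon in the same context stood at 0.254 and 0.233 with RBFOXi and 0.304 and 0.311 with SCRM. In these events of the 3 exons both RBFOXi libraries lay below both SCRM libraries. For the 60 nt exon in the same context the groups overlapped, at 0.422 and 0.468 with RBFOXi and 0.548 and 0.453 with SCRM. The order and the size depended on the event. Delta PSI of the 159 nt exon was -0.134 between the 75 and 85 nt exons and -0.131 between the 89 and 60 nt exons. For the 75 nt exon between the 89 and 60 nt exons it was -0.116. In these events too, both RBFOXi libraries lay below both SCRM libraries. Between the 89 and 159 nt exons the 75 nt exon had 0.497 and 0.510 with RBFOXi and 0.463 and 0.539 with SCRM, and the 159 nt exon overlapped between the 75 and 60 nt exons (0.944 and 0.919 with RBFOXi, 0.949 and 0.909 with SCRM). The 60 nt exon was lower in both RBFOXi libraries when skipped from the 170 or the 75 nt exon to the 85 nt exon (delta PSI -0.0327 and -0.0437). The events share reads: the same skipping counts (320 and 322 with RBFOXi, 281 and 281 with SCRM) stand in the events of the 75, 159 and 60 nt exons, and another set (52, 88, 55 and 57) in a second event of the 75 and 159 nt exons and in that of the 42 nt exon. Over the 22 tested events, 10 were lower in this way and 3 higher, with a median delta PSI of -0.0350. Among all 39615 tested skipped exon events these shares were 16.5% below and 14.3% above. The 178 nt exon was rare in each library, at PSI 0.0456 to 0.0625.

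In DNM1L, the alternative exons of 78 and 33 nt lie side by side on chromosome 12 (32890799 to 32890876 and 32891198 to 32891230) and both keep the frame. As a pair they were read as mutually exclusive, although 13 annotated transcripts hold both, 9 the 78 nt exon alone and 5 the 33 nt exon alone. The share of the 78 nt exon was 0.312 and 0.279 with RBFOXi and 0.455 and 0.318 with SCRM, a delta PSI of -0.0909. Both RBFOXi libraries were lower, but the gap to SCRM replicate 2 was small, and without SCRM replicate 1 the difference was -0.0226. In the events of single exons, the 78 nt exon had PSI of 0.294 and 0.249 with RBFOXi and 0.310 and 0.273 with SCRM, with overlap, and the 33 nt exon 0.478 and 0.462 with RBFOXi and 0.350 and 0.446 with SCRM, higher in both RBFOXi libraries (delta PSI 0.0721, and 0.0242 without SCRM replicate 1). A 39 nt exon nearer the 5′ end (32858759 to 32858797) was almost unused, with 0 and 2 inclusion counts with RBFOXi and 10 and 4 with SCRM. Its delta PSI of -0.0914 came from SCRM replicate 1 alone, where PSI was 0.180 on 57 skipping counts, against at most 0.00829 in the other 3 libraries.

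In OPA1, the fusion factor, the best covered event of each tested skipped exon had a delta PSI between 0.00253 and 0.0217. Its known alternative exons are those of 108, 54 and 111 nt (chromosome 3, 193334967 to 193335074, 193335573 to 193335626 and 193343881 to 193343991), all coding and in frame. The 108 nt exon was included in most transcripts, with PSI from 0.837 to 0.889, the 54 nt exon in few, from 0.0976 to 0.118 in its better covered event, and the 111 nt exon in between, from 0.347 to 0.398. RBFOXi and SCRM libraries overlapped for the 108 and 111 nt exons, and delta PSI was 0.0133 for the 54 nt exon. These values rested on few counts in SCRM replicate 1, where the 54 nt exon had 7 inclusion counts. Among the mutually exclusive events, a thinly covered one of the 97 and 108 nt exons, which 19 transcripts hold together, had 0.320 and 0.346 with RBFOXi and 0.443 and 0.401 with SCRM, while a better covered event of the same exons had 0.225 and 0.234 with RBFOXi and 0.274 and 0.217 with SCRM.

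The other tested regions had a delta PSI under 0.1 in size. The other 5 tested skipped exons of DNM2 had PSI of at least 0.994 in each library. In DNM1, the downstream exon 10 had a mean of 50.8 counts per library in its skipped exon event, of which 2 and 1 with RBFOXi and 1 and 0 with SCRM were skipping counts, with PSI of 0.865 and 0.959 with RBFOXi and 0.753 and 1.00 with SCRM. Pairs of DNM1L exons that are mostly held together gave 0.632 and 0.612 with RBFOXi and 0.518 and 0.656 with SCRM for the 47 and 121 nt exons, and 0.810 and 0.809 with RBFOXi and 0.739 and 0.788 with SCRM for the 121 and 132 nt exons. In MFF, the pair of 112 and 89 nt exons stood at 0.694 and 0.644 with RBFOXi and 0.659 and 0.787 with SCRM. That of 159 and 60 nt exons stood at 0.297 and 0.226 with RBFOXi and 0.321 and 0.305 with SCRM. These MFF pairs are not strict alternatives either, since 10 annotated transcripts hold both exons of the former and 4 both of the latter. SCRM replicate 1 was the lowest library in both DNM1L pairs.

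**Figure D3:**
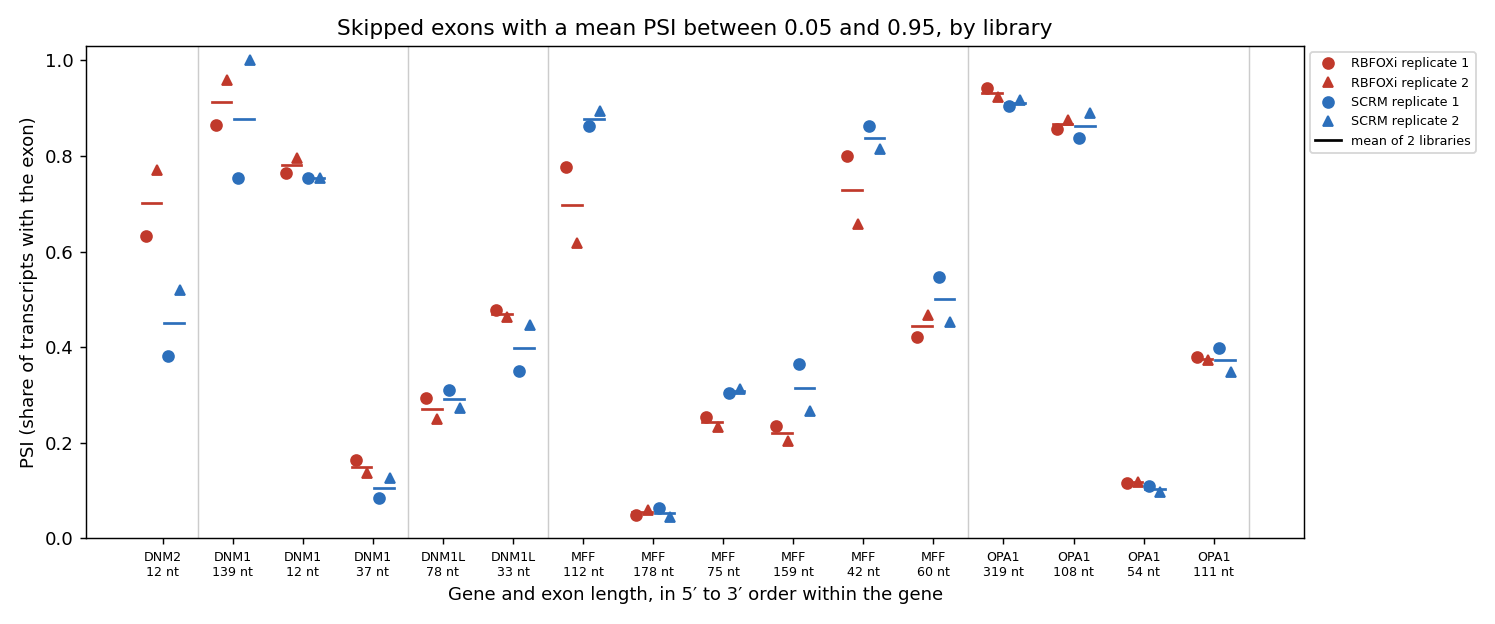
PSI (vertical axis, 0 to 1) in each library for the 16 skipped exons of the 5 genes whose mean PSI lies between 0.05 and 0.95, the event with the most counts standing for each exon, and bars at the means. The 12 nt exon of DNM2 is higher in both RBFOXi libraries (0.632 and 0.771, against 0.381 and 0.520), the 112 nt exon of MFF is lower (0.777 and 0.618, against 0.862 and 0.893), and the exons of OPA1 are nearly level.

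Over all events of the 5 genes, 91 of 143 passed the filter on low counts, 47 of 97 skipped exon events, 39 of 40 mutually exclusive events, 4 of 5 alternative 3′ splice sites and the 1 retained intron, and no alternative 5′ splice site of these genes is listed. In the limma fit across all events, an event was called when its adjusted p-value was below 0.05 and its delta PSI was 0.1 or more in size. This gave 0 calls among the 47 skipped exon events, beside 27 of 39615 (0.0682%) in all genes, and 0 of the 39 mutually exclusive events beside 0 of 26176 (0%). None of the 4 alternative 3′ splice sites or the retained intron was called, beside 0% of all events of either type. Unadjusted p-values were under 0.05 in 3 skipped exon events of the 5 genes, beside 1430 of 39615 (3.61%), and in 1 mutually exclusive event, beside 395 of 26176 (1.51%). A quasi-binomial F test also called 0. Fisher's exact test, run on the sums of each group and so blind to the spread between libraries, called 6 skipped exon events, 5 of MFF and the DNM2 microexon, beside 317 of all 39615 (0.8%). Among mutually exclusive events it called the DNM2 exon 10 pair, beside 199 of 26176 (0.76%). Among the 47, 6 had a delta PSI of this size (1 higher, 5 lower), all in DNM2 or MFF, beside 4.83% of all tested events. As the genes were chosen on these libraries, nothing is read from these shares.

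The RBFOX motif was looked up around 19 alternative exons of the 5 genes, in the sense direction of the gene only. The hexamer UGCAUG, written with T in the genome, was found within 300 nt of the exon in 9 of the 19, before it in 5 and after it in 6. Among all 30615 distinct tested skipped exons the shares were 8.16% before, 8.36% after and 15.8% on either side. The 19 were chosen with results of these data known and include exons of mutually exclusive pairs. The copies between the 78 and 33 nt exons of DNM1L count for both exons. The numbers therefore stand side by side as a description, and enrichment was not tested. The shorter GCAUG, which lies inside the hexamer, was found on either side of 42% of them. The windows below show the copies nearest to the exons described above, with the motif in capitals and 12 bases on each side.
DNM2, 113 nt before the downstream exon 10: caggctcccccaTGCATGgactaatcagat
DNM2, 263 nt before the microexon: gaacgtaaccatTGCATGatttatttttgc
MFF, from base 51 after the 112 nt exon: ctttaaatcgtcTGCATGccaaatccttaa
MFF, from base 68 after the 60 nt exon: tgcagggcatgtTGCATGtcgtagccatgc
DNM1L, from base 27 after the 78 nt exon: ttaatctaagccTGCATGccttgttctctg
DNM1L, 21 nt before the 33 nt exon: tgcttgttaaatTGCATGttttaacatatc
DNM1L, from base 46 after the 39 nt exon: ttctcttatgccTGCATGtgtgcttatgta
DNM1, from base 25 after the 37 nt exon: ctcaccgcctgcTGCATGaacggtgtgtct

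In DNM2 the intron between the exons of the pair (1180 nt) holds 1 copy, which lies before the downstream exon, the one used more with RBFOXi, and the intron after it holds 3, the nearest from base 335. The intron before the upstream exon has none. In DNM1 the intron between the exons of the pair holds 1 copy, 561 nt before the downstream exon. The intron before the upstream exon holds 1, at 1239 nt, and the intron after the downstream exon 2, the nearest from base 7213. None lies within 300 nt of either DNM1 exon. The DNM2 microexon, higher with RBFOXi, has a copy 263 nt before it and the DNM1 microexon none in either flanking intron. The 112 nt exon of MFF, lower with RBFOXi, has a copy from base 51 after it, and the 75 nt exon has copies on both sides, 229 nt before it and from base 219 after it. The 159 nt exon of MFF, also lower, has none within 300 nt. The 60 nt exon of MFF, whose groups overlapped in its best covered event, has a copy from base 68 after it. The 37 nt exon of DNM1, higher with RBFOXi on few counts, has a copy from base 25 after it. It also has copies before it, the nearest at 124 nt. Whether the copies bear on the differences was not tested. In DNM1L the 2 copies at the 78 and 33 nt exons lie in the 321 nt intron between them. The 39 nt exon of DNM1L has a copy from base 46 after it. The 108 and 54 nt exons of OPA1 have none in the flanking introns, and the nearest to its 111 nt exon is 3678 nt away. A match is a description of the letters and not a measurement of binding.

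**Figure D4:**
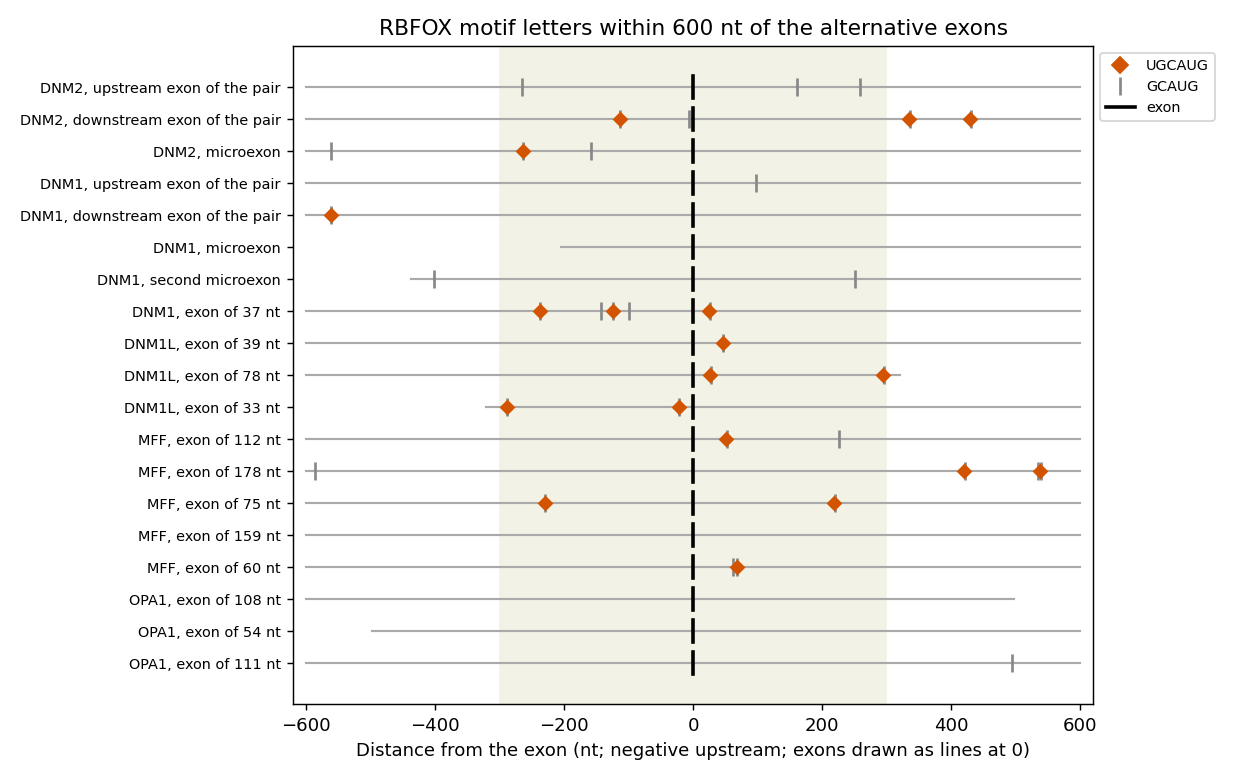
Positions of UGCAUG (diamonds) and GCAUG (ticks) within 600 nt of the 19 alternative exons, with the distance from the exon in nt on the horizontal axis, negative before the exon, each exon drawn as a line at 0, introns as grey lines and 300 nt shaded on each side. DNM2's downstream exon 10 has copies before and after it, the 112 nt exon of MFF a copy just after it, and the exons of OPA1 none within 300 nt.

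Partners of the 5 proteins were read from a list of 52 names of the dynamin superfamily, of fission and fusion factors and of dynamin-binding proteins with SH3 or BAR domains. Tested skipped exon events were found for 36 of them, 159 events in all, and limma called 0, with 5 at an unadjusted p under 0.05, beside 3.61% of all tested skipped exon events. The median delta PSI was -0.000227, beside -5.65e-05 for all tested events. The largest differences were all in BIN1, a BAR domain protein that binds dynamin and curves membranes. Its 129 nt exon (chromosome 2, 127815049 to 127815177, minus strand) had PSI of 0.327 and 0.446 with RBFOXi and 0.520 and 0.621 with SCRM (delta PSI -0.183), and a second event of the same exon a delta PSI of -0.119. The 90 nt exon of BIN1 (127808730 to 127808819) had 0.433 and 0.515 with RBFOXi and 0.554 and 0.615 with SCRM, a delta PSI of -0.111. In each of these 3 events, picked for their size, both RBFOXi libraries lay below both SCRM libraries, as in 16.5% of all tested skipped exon events. Of the 159 partner events 29 lay below in this way and 22 above.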

How the data were processed

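Per the study's methods and notes, reads were placed at unique positions of hg19 by STAR 2.4.2a, and rMATS listed the events. What the authors deposited and what is used here are raw counts of reads for each form (inclusion, skipping) in each library, with the forms' effective lengths. The deposited p-values, FDR, inclusion levels and inclusion level differences are the authors' own comparison and were not used. Counts over skipped exon events came to 114415530 to 136097319 per library, and a read can stand in several events. PSI was inclusion counts over effective length, divided by the sum of both forms so scaled.

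The filter asked for 5 or more counts per library, 20 on average and 4 of each form. Log2 odds of inclusion (pseudocount 0.5) entered limma 3.58.1 under R 4.3.3, with Benjamini-Hochberg adjustment over all events of a type. In mutually exclusive events of + strand genes the inclusion form holds the first exon: the effective lengths differ that way in 1812 of 1858 events with unequal exons and the other way in 0. Exons and introns were read from GRCh37 (hg19) with pysam 0.24.0 and annotated with GENCODE 44. Per gene and event type, the 3 tested regions with the largest absolute delta PSI were named (the event with the most counts standing for a region), besides the known alternative exons, the partner genes' 3 largest events and the 3 genes most like the DNM2 pair. Other events are named only for context. The genes, lists and tests were chosen with earlier results of these data known. The study describes the libraries as biological replicates, 2 per group.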

Additional observations from a re-analysis of the deposited data

How the results depend on the processing

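Of the 33 named events, 20 kept the sign of delta PSI under the plain share of counts and with each library left out, among them all 5 whose delta PSI was 0.1 or more in size. The count of called events was 0 for the 5 genes in each event type and for skipped exons of the partner genes, and it stayed 0 with a pseudocount of 0.1 or 1, with at least 20 counts or 1 count in every library, with a delta PSI minimum of 0.05 and with the quasi-binomial F test. Centring the log2 odds gave 1 called mutually exclusive event, the DNM2 exon 10 pair, beside 5 in all genes. That pair was in view when the genes were chosen, so its calls here and below are descriptions and give it no support. Fisher's exact test on summed counts gave 6 skipped exon events, 1 mutually exclusive event and, in BIN1 among the partner genes, 3 skipped exon events and 1 mutually exclusive event. A replicate block in the limma fit gave calls for 2 skipped exon events (the MFF 112 nt exon and the DNM2 microexon), 1 mutually exclusive event (the DNM2 pair) and 1 partner event (BIN1), beside 119 skipped exon and 77 mutually exclusive events of all genes. Titles of same-numbered libraries end alike, labels do not say what they share, and deviations of same-numbered libraries correlated at 0.0836 to 0.118 across events of a type, so the block is not shown to pair cultures. With single libraries left out, called skipped exon events ranged from 0 to 1 (the MFF exon, without RBFOXi replicate 1, beside 63 in all genes) and mutually exclusive events from 0 to 2. The DNM2 pair was called without SCRM replicate 1, beside 20 in all genes, and the DNM2 pair and a DNM1L pair of 47 and 121 nt exons without SCRM replicate 2, when the lone SCRM library is assumed to vary like the others and 1431 events of all genes were called. In these fits the count stayed at 0 for other event types and for skipped exons of partner genes. Alternative forms with few counts, such as the 37 nt exon of DNM1 (9 to 22) and the OPA1 exons in SCRM replicate 1, are limited by depth.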
